A study of Mus musculus with 17 samples.

Results

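The 10 genes described here encode enzymes and a chaperone that finish collagen after its chains are made. They were taken by symbol from a counts table of 31053 mouse genes, and each matched 1 row. The genes are *P4ha1*, *P4ha2* and *P4ha3* (collagen prolyl 4-hydroxylase catalytic subunits), *Plod1* and *Plod2* (lysyl hydroxylases), *Lox*, *Loxl1*, *Loxl2* and *Loxl3* (lysyl oxidases) and *Serpinh1* (the chaperone Hsp47). All 10 passed the filter on low counts, a minimum of 10 counts in 3 or more libraries. The smallest count behind any value was 6, for *P4ha3* in a 1 dpi library, and the largest was 36735, for *Serpinh1*.

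Collagen chains are modified in the endoplasmic reticulum before they fold. Prolyl 4-hydroxylases make the 4-hydroxyproline that keeps the triple helix stable at body temperature. Lysyl hydroxylases modify lysines that later carry sugars and crosslinks, and Hsp47 binds the folded helix on its way to the Golgi. Outside the cell, lysyl oxidases oxidise lysine and hydroxylysine side chains, which then form the covalent crosslinks of collagen and elastin fibres. In an infarcted heart these steps turn newly secreted collagen into a scar with tensile strength.

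The cells were *Col1α1*-GFP+/CD31-/CD45- cardiac fibroblasts (CFs) sorted from hearts of C57BL/6 mice of genotype Collagen1a1-GFP+, aged 8 to 10 weeks, at 1 to 6 days post-infarction (dpi). GFP was driven by the *Col1α1* promoter, so the sort took cells that used a collagen promoter, and every group had undergone myocardial infarction. Days 1, 2, 4 and 6 had 3 libraries each, day 3 had 4 and day 5 had 1, and uninfarcted hearts were not analysed here. RNA was measured by bulk MARS-seq, which reads the 3′ ends of poly-A transcripts, so levels are compared between days and not between genes. In bulk samples, fewer cells of a type and less RNA per cell cannot be told apart. The libraries of a day are described as biological replicates, but which animals each came from is not given in the sources used here, so p-values measure the spread between these libraries.

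Libraries held 8021815 to 22029938 counts (median 14123952), at which the floor of 3 counts corresponds to 0.136 to 0.374 CPM (counts scaled to library size) and covers counting error only. All 8 fibroblast markers had counts on every day, and the fibroblast marker *Tcf21* was at 238 to 682 CPM, whereas *Ptprc*, which encodes CD45, had 0 to 37 counts. The summed level of 7 mural cell markers was 64.1 to 102 CPM at 1 and 2 dpi, 126 to 256 CPM at 3 to 5 dpi and 188 to 245 CPM at 6 dpi. The 8 leukocyte markers summed to 8.31 to 31.4 CPM at 1 and 2 dpi, 17.1 to 188 CPM at 3 to 5 dpi and 15.0 to 30.8 CPM at 6 dpi, with the highest values at 3 dpi. The 7 cardiomyocyte markers summed to 14.0 to 44.4, 9.31 to 89.7 and 108 to 272 CPM in the same 3 groups. The 7 endothelial markers summed to 60.0 to 184, 51.2 to 164 and 42.9 to 52.6 CPM, and the 6 mesothelial markers to 22.7 to 243, 40.1 to 221 and 78.9 to 628 CPM. The part of these cells in the results was not tested. Y-linked genes outnumbered *Xist* in all libraries of 2, 3 and 5 dpi and in replicates 2 and 3 of 1 dpi, and *Xist* outnumbered them in 1 dpi replicate 1 and in all libraries of 4 and 6 dpi. Day and this sex-linked pattern cannot be told apart in the comparison of 4 with 3 dpi. The pattern also goes in part with day in 6 against 1 dpi, and in 3 to 5 dpi against 6 dpi or against 1 and 2 dpi. The 3 dpi libraries carry column names of another form than all other libraries, whose names share 1 numbered series. Whether they were prepared apart is not given, and day cannot be told apart from this difference in comparisons of 3 dpi with another day.

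Promoters are shown for the 3 prolyl 4-hydroxylase subunits, because these paralogs followed different courses. RefSeq promoter sequences (GRCm38.p6, 250 bases before to 50 after the start listed there) matched 5 of the 10 genes, which were *P4ha1*, *P4ha2*, *P4ha3*, *Plod1* and *Serpinh1*. All 3 sequences are on the plus strand, 5′ to 3′. Capitals mark ACGTG, a form of the hypoxia response element core, or its reverse complement CACGT. Other forms of that core were not searched. The sequences lie at chr10:59323046-59323345 (*P4ha1*), chr11:54100674-54100973 (*P4ha2*) and chr7:100285270-100285569 (*P4ha3*).
P4ha1: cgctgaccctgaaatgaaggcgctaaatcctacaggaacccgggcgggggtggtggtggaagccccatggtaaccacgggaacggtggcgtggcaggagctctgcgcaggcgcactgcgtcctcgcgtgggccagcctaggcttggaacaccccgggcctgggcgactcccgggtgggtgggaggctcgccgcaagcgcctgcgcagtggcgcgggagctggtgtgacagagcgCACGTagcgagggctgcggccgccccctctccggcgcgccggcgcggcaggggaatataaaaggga
P4ha2: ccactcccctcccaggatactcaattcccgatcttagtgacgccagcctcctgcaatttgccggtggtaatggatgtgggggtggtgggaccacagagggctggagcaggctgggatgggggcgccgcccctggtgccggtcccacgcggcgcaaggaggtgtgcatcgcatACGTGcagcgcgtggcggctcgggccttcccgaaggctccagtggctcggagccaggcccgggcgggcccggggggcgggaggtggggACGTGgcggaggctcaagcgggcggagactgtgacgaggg
P4ha3: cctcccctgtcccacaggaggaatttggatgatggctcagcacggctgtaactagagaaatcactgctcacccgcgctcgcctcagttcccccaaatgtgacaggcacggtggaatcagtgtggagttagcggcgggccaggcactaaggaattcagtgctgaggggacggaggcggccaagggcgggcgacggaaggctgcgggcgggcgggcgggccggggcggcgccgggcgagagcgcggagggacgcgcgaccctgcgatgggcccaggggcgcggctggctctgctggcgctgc
ACGTG, searched on both strands, had 1 match in *P4ha1*, 2 in *P4ha2*, 1 in *Serpinh1* and 0 in *P4ha3* and *Plod1*, and 19.6% of all 32851 promoters of this length held it. With the start listed in RefSeq as position 1, the matches began at position -16 in *P4ha1* and at positions -78 and 11 in *P4ha2*. That start is the first base of the GENCODE gene in *P4ha1* and *P4ha3*, whereas in *P4ha2* it is 54100924, which lies 829 bases inside the GENCODE gene, so the window printed does not hold the sequence before the GENCODE start. GGGCGG, the GC box, had 5 matches in *P4ha3*, of which 3 overlapped each other, 4 in *P4ha2*, 3 in *Plod1*, 2 in *P4ha1* and 1 in *Serpinh1*, against 35.7% of all promoters with at least 1. CCAAT (37.4% of all promoters), the AP-1 site TGANTCA (7.81%) and the TEAD site CATTCC (14.7%) had no match in the 5 promoters. TATAAA (13.6%) had 1 match each in *P4ha1* and *Plod1*. No match of the GC box overlapped a match of ACGTG in the 3 promoters printed. These are matches of letters in a window and not binding sites.

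*P4ha3* was higher at 3 to 5 dpi than at 1 and 2 dpi and had the largest change of the 10 genes in that comparison. The gene (ENSMUSG00000051048) lies on chromosome 7, 100285520 to 100319699, plus strand. Levels are CPM scaled to TMM-normalized library sizes. *P4ha3* was at 0.760, 4.45 and 3.03 CPM in the 1 dpi libraries and at 6.75, 7.92 and 8.49 CPM at 2 dpi. It was at 31.4, 15.8, 22.0 and 38.6 CPM at 3 dpi and at 56.0, 57.5 and 65.0 CPM at 4 dpi. The 5 dpi library had 67.7 CPM and those of 6 dpi had 43.3, 30.8 and 48.3 CPM. Every library from 3 dpi on lay above every library of 1 and 2 dpi, and the 6 dpi libraries overlapped those of 3 dpi but lay below those of 4 dpi. The mean over 3, 4 and 5 dpi, each day weighted equally, was 10.0-fold above the mean of 1 and 2 dpi (log2 fold change 3.33 ± 0.29, SE, edgeR adjusted p = 4.15e-07). The first libraries rest on few reads, 6, 108 and 62 counts at 1 dpi.

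Between neighbouring days, *P4ha3* rose 3.48-fold from 2 to 3 dpi (log2 fold change 1.80 ± 0.37, SE, edgeR adjusted p = 0.0124). That call was lost when any 1 of the 2 dpi libraries was left out (edgeR adjusted p = 0.0557, 0.0803 and 0.0519 without replicates 1, 2 and 3), and under a replicate block (log2 fold change 1.59, edgeR adjusted p = 0.0528). The log2 fold changes of 1.40 from 1 to 2 dpi (edgeR adjusted p = 0.278) and of 1.14 from 3 to 4 dpi (edgeR adjusted p = 0.0798) missed the threshold although the libraries of the days did not overlap. At 6 dpi the level was 13.9-fold that of 1 dpi (log2 fold change 3.80 ± 0.42, SE, edgeR adjusted p = 1.27e-05). The 3 to 5 dpi mean differed from 6 dpi by a log2 fold change of 0.22 ± 0.32 (SE, edgeR adjusted p = 0.693).

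*P4ha2* (ENSMUSG00000018906, chromosome 11, 54100095 to 54131665) had a smaller change than *P4ha3*, with day means highest at 3 to 5 dpi and lowest at 6 dpi. It was at 45.1, 72.9 and 71.0 CPM at 1 dpi, at 71.8, 50.9 and 73.9 CPM at 2 dpi and at 98.1, 68.9, 90.7 and 115 CPM at 3 dpi. It was at 98.3, 83.9 and 74.8 CPM at 4 dpi, 116 CPM at 5 dpi and 52.8, 64.0 and 61.2 CPM at 6 dpi. Of the 8 libraries of 3 to 5 dpi, only 3 dpi replicate 2 fell inside the range of 1 and 2 dpi, and all 8 lay above the 6 dpi libraries. The 3 to 5 dpi mean was 1.52-fold that of 1 and 2 dpi (log2 fold change 0.60 ± 0.18, SE, edgeR adjusted p = 0.0450) and 1.64-fold that of 6 dpi (log2 fold change 0.72 ± 0.23, SE, edgeR adjusted p = 0.0444). Both calls were close to the threshold. The first was lost in 19 of 27 alternatives (edgeR or DESeq2 adjusted p from 0.0117 to 0.131) and the second in 17 of 26 (0.0111 to 0.190). Leaving out 1 library ended the first call in 13 of 16 cases and the second in 12 of 16.

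*P4ha1* (ENSMUSG00000019916, chromosome 10, 59323296 to 59373304) varied least of the 3 subunits. Its day means, taken on the log2 scale, spanned a 1.53-fold range, against 28.8-fold for *P4ha3* and 1.96-fold for *P4ha2*. Libraries lay between 121 and 179 CPM at 1 dpi, 106 and 160 at 2 dpi, 117 and 146 at 3 dpi, 104 and 129 at 4 dpi and 105 and 130 at 6 dpi, with 175 CPM at 5 dpi. The 3 to 5 dpi mean differed from 1 and 2 dpi by a log2 fold change of -0.04 ± 0.17 (SE, edgeR adjusted p = 0.920).

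**Figure D1:**
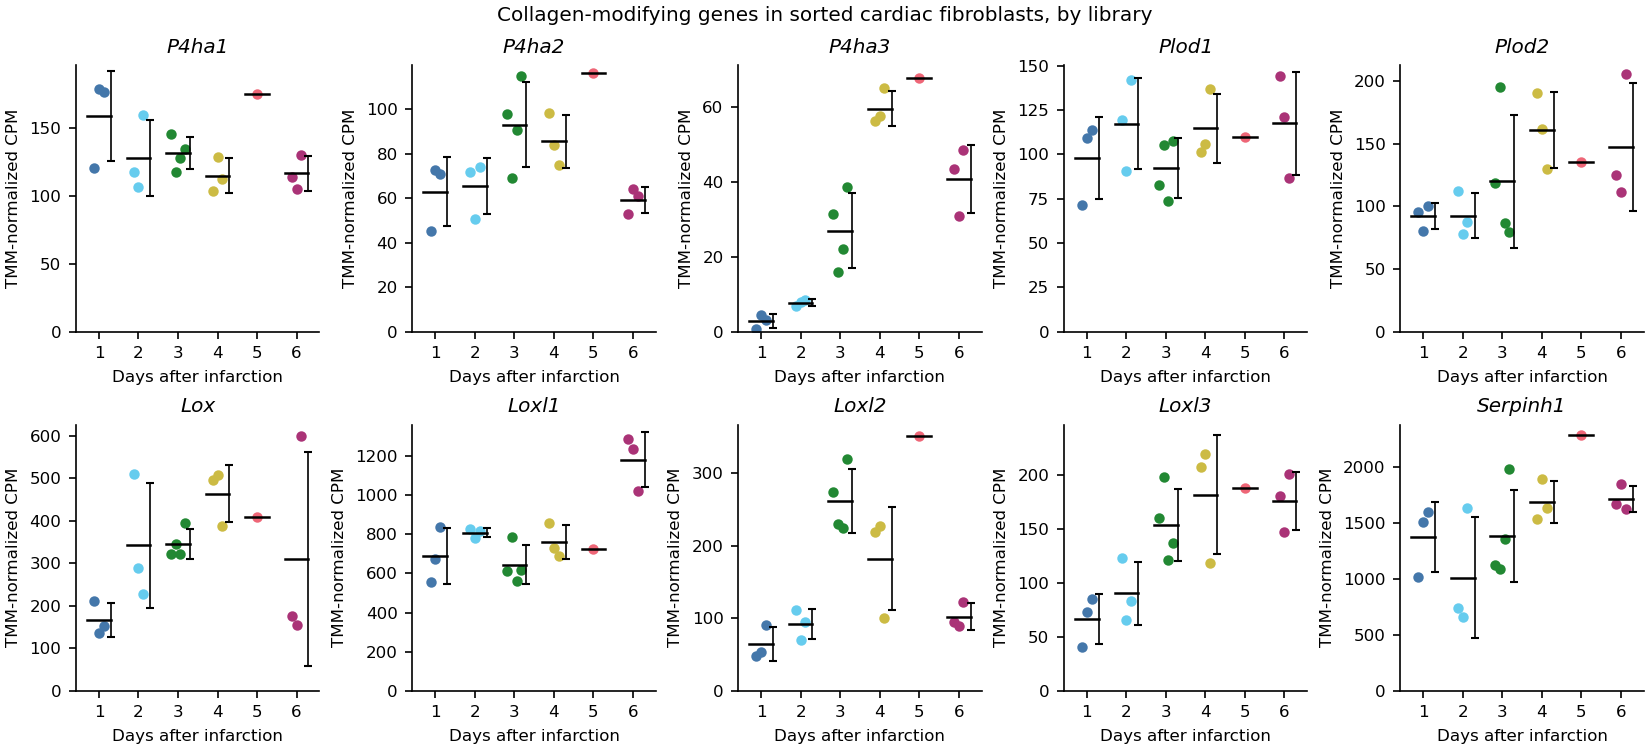
Level of each gene (vertical axes, TMM-normalized CPM, starting at 0) against days after infarction (horizontal axes). Points are libraries, horizontal bars are day means and error bars are the SD (no error at 5 dpi, 1 library). *P4ha3* goes from at most 8.49 CPM at 1 and 2 dpi to at least 15.8 CPM from 3 dpi on, *Loxl2* is high at 3 to 5 dpi, and *Loxl1* is highest at 6 dpi.

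Neither lysyl hydroxylase passed the test in any comparison with all libraries, and *Plod2* passed across 1 to 6 dpi without 3 dpi replicate 2. *Plod1* (ENSMUSG00000019055, chromosome 4, 147909753 to 147936767), which hydroxylates lysines in the triple helix, had the narrowest range of day means of the 10 genes, 1.26-fold on the log2 scale between 3 and 2 dpi. Its arithmetic means were 92.3 ± 16.7 CPM (SD, n = 4) at 3 dpi, 117 ± 25.8 CPM (SD, n = 3) at 2 dpi and 118 ± 29.0 CPM (SD, n = 3) at 6 dpi. *Plod2* (ENSMUSG00000032374, chromosome 9, 92542223 to 92608428), which hydroxylates lysines in the telopeptides, averaged 92.0 ± 10.5 CPM on day 1 (SD, n = 3) and 92.6 ± 17.9 CPM on day 2 (SD, n = 3). The averages were 120 ± 53.0 CPM on day 3 (SD, n = 4), 161 ± 30.2 CPM on day 4 (SD, n = 3) and 147 ± 50.9 CPM on day 6 (SD, n = 3), with 135 CPM in the 5 dpi library. The spread within days came from a few libraries. At 3 dpi replicate 2 was at 195 CPM and replicates 3 and 4 at 86.5 and 79.4 CPM, and at 6 dpi replicate 3 was at 206 CPM. The log2 fold change of *Plod2* from 1 and 2 dpi to 3 to 5 dpi was 0.58 ± 0.23 (SE, edgeR adjusted p = 0.133), and that of *Plod1* was -0.03 ± 0.19 (SE, edgeR adjusted p = 0.954).

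*Loxl2* rose at 3 dpi and was lower again at 6 dpi. The gene (ENSMUSG00000034205, chromosome 14, 69609068 to 69695834), which shares exon sequence with *Gm27177* (32 counts in all libraries), encodes an oxidase known for crosslinking fibrillar and basement membrane collagen. It was at 48.4, 53.1 and 91.1 CPM at 1 dpi and at 111, 69.4 and 95.3 CPM at 2 dpi. It was at 274, 230, 225 and 319 CPM at 3 dpi and at 219, 227 and 100 CPM at 4 dpi. The 5 dpi library was at 352 CPM and those of 6 dpi at 94.9, 89.2 and 123 CPM. Of the 8 libraries of 3 to 5 dpi, 4 dpi replicate 3 alone fell inside the range of the earlier and of the 6 dpi libraries. The 3 to 5 dpi mean was 3.33-fold that of 1 and 2 dpi (log2 fold change 1.74 ± 0.23, SE, edgeR adjusted p = 4.71e-05), and the step from 2 to 3 dpi was 2.86-fold (log2 fold change 1.51 ± 0.31, SE, edgeR adjusted p = 0.0110). That step was not called without 2 dpi replicate 2 or 3 (edgeR adjusted p = 0.0989 and 0.0519). Against 6 dpi the 3 to 5 dpi mean was 2.50-fold higher (log2 fold change 1.32 ± 0.29, SE, edgeR adjusted p = 0.00717), a call lost without 6 dpi replicate 1 or 2 (edgeR adjusted p = 0.0512 and 0.0666). The log2 fold change from 1 to 6 dpi was 0.67 ± 0.31 (SE, edgeR adjusted p = 0.170).

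*Loxl3* rose as well, and its level at 6 dpi was close to that of 3 to 5 dpi. The gene (ENSMUSG00000000693, chromosome 6, 83034173 to 83052562, plus strand) was at 40.3, 73.3 and 85.2 CPM at 1 dpi, at 123, 65.8 and 83.2 CPM at 2 dpi and at 160, 198, 121 and 137 CPM at 3 dpi. It was at 207, 220 and 119 CPM at 4 dpi, 188 CPM at 5 dpi and 180, 147 and 201 CPM at 6 dpi. The libraries of 3 to 5 dpi lay above those of 1 and 2 dpi except for 2 dpi replicate 1, which lay above 2 of them. The 3 to 5 dpi mean was 2.25-fold that of 1 and 2 dpi (log2 fold change 1.17 ± 0.22, SE, edgeR adjusted p = 0.00221), and 6 dpi was 2.65-fold above 1 dpi (log2 fold change 1.41 ± 0.32, SE, edgeR adjusted p = 0.00736). The 3 to 5 dpi mean and 6 dpi differed by a log2 fold change of -0.02 ± 0.27 (SE, edgeR adjusted p = 0.980). The last exon of *Loxl3* (chromosome 6, 83050800 to 83052562) shares 535 of its 1763 bases with *Htra2* on the opposite strand, which had 16641 counts in all libraries against 33056 for *Loxl3*. The strand setting of the counting is not given in the sources used here, so reads of this stretch may not have been told apart.

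*Loxl1* and *Lox* followed other courses. *Loxl1* (ENSMUSG00000032334, chromosome 9, 58287738 to 58313186), known for its role in elastic fibre upkeep, was at 554 to 839 CPM in all 14 libraries up to 5 dpi apart from 4 dpi replicate 1 with 859 CPM, and at 1285, 1237 and 1020 CPM at 6 dpi. The 6 dpi libraries lay above all others. The mean of 3 to 5 dpi was below that of 6 dpi by a log2 fold change of -0.74 ± 0.21 (SE, edgeR adjusted p = 0.0283), and 6 dpi was 1.71-fold above 1 dpi (log2 fold change 0.78 ± 0.24, SE, edgeR adjusted p = 0.0427). The first call was lost in 6 of 26 alternatives, which were leaving out 6 dpi replicate 1 or 2 (edgeR adjusted p = 0.130 in both), the replicate block (0.0712), every gene with at least 1 count (0.0799), only the days compared (0.0676) and leaving out the 3 dpi libraries (0.0837). The second was lost in 14 of 25 alternatives, in 11 of them on leaving out 1 library. Within libraries of like sex-linked pattern, the log2 fold change from 4 to 6 dpi was 0.63 ± 0.24 (SE, edgeR adjusted p = 0.164), with no overlap between the libraries. *Lox* (ENSMUSG00000024529, chromosome 18), the founding member of the family, is given for comparison only. It was at 136 to 211 CPM at 1 dpi, 229 to 509 at 2 dpi, 321 to 395 at 3 dpi, 388 to 509 at 4 dpi and 409 CPM at 5 dpi. Its 6 dpi libraries were split, at 175, 156 and 600 CPM, and replicate 3 with the 600 CPM was also the highest for *Plod2*. The log2 fold change of *Lox* from 1 and 2 dpi to 3 to 5 dpi was 0.76 ± 0.29 (SE, edgeR adjusted p = 0.121), and it passed without 6 dpi replicate 3 (0.76, edgeR adjusted p = 0.0228).

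*Serpinh1* (ENSMUSG00000070436, chromosome 7, 99345376 to 99353239) was not called in any comparison with all libraries, and its levels spread most at 2 and 3 dpi. It averaged 1379 ± 314 CPM on day 1 (SD, n = 3), 1011 ± 542 CPM on day 2 (SD, n = 3) and 1388 ± 413 CPM on day 3 (SD, n = 4). Later averages were 1689 ± 188 CPM on day 4 (SD, n = 3) and 1716 ± 117 CPM on day 6 (SD, n = 3), and the 5 dpi library was highest with 2292 CPM. At 2 dpi, replicates 1 and 2 were at 741 and 657 CPM and replicate 3 at 1634 CPM. The log2 fold change from 1 and 2 dpi to 3 to 5 dpi was 0.57 ± 0.24 (SE, edgeR adjusted p = 0.163), and without 2 dpi replicate 3 it was 0.84 (edgeR adjusted p = 0.0253).

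Across 1 to 6 dpi, 3 of the 10 genes differed between days, *P4ha3* (edgeR adjusted p = 6.4e-06), *Loxl2* (0.000323) and *Loxl3* (0.0122), where 15% of the 14030 genes tested did. Without 3 dpi replicate 2 there were 6, with *Loxl1*, *P4ha2* and *Plod2* added, and the count over all genes went from 2099 to 3466. In the comparison of 3 to 5 dpi with 1 and 2 dpi, 4 genes rose (*P4ha3*, *Loxl2*, *Loxl3* and *P4ha2*) and 0 fell, and 6 did not pass. Of all genes tested, 7.48% were called by edgeR, 5.25% as higher and 2.24% as lower. The median log2 fold change was 0.59 for the 10 genes and -0.000719 for all genes tested. For *P4ha3*, *Loxl2* and *Loxl3*, the calls were kept in every alternative that tested them, with log2 fold changes of 2.99 to 3.70, 1.51 to 1.90 and 1.01 to 1.29. Within the libraries where Y-linked genes outnumbered *Xist*, which leaves out 4 dpi, the log2 fold changes were 2.99, 1.90 and 1.01. Without the 3 dpi libraries, where leukocyte markers were highest, they were 3.70, 1.69 and 1.23. Neither subset removes both differences. The first keeps the 3 dpi libraries, and the second keeps those of 4 dpi, where *Xist* outnumbered the Y-linked genes. The part of either difference in the calls was not tested.

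**Figure D2:**
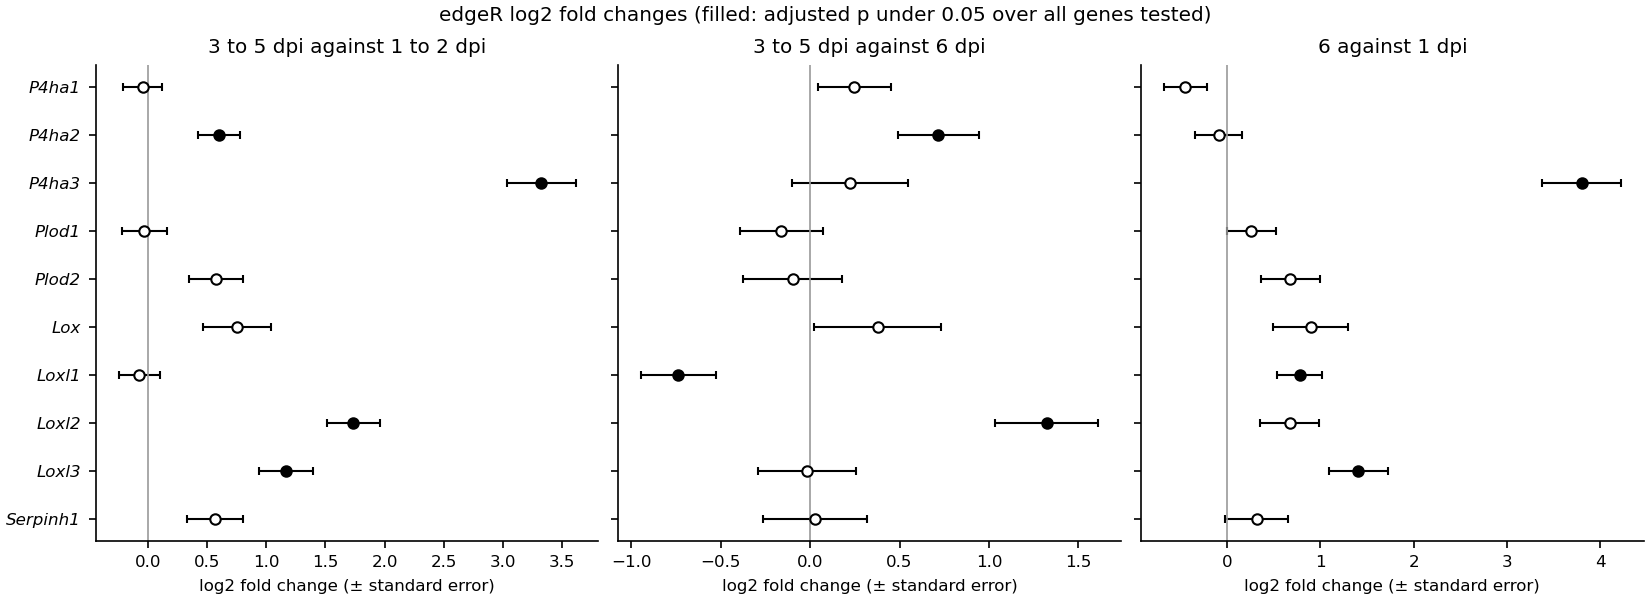
Log2 fold changes (horizontal axes) with their standard errors for the 10 genes (rows) in 3 comparisons, the mean of 3 to 5 dpi against 1 to 2 dpi, the same mean against 6 dpi, and 6 against 1 dpi. Filled points passed an edgeR adjusted p of 0.05, which 4, 3 and 3 genes did, and the largest value is 3.80 for *P4ha3* at 6 against 1 dpi.

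Against 6 dpi, which shares the 3 to 5 dpi libraries with the comparison above, *Loxl2* and *P4ha2* were higher at 3 to 5 dpi and *Loxl1* was lower. That is 3 of 10 genes where edgeR called 11.5% of all genes tested, 5.29% as higher and 6.25% as lower. From 2 to 3 dpi, 2 of the 10 genes rose, *P4ha3* and *Loxl2* (2.94% of all genes called, 1.82% as higher and 1.12% as lower). From 1 to 6 dpi, 3 rose, *P4ha3*, *Loxl3* and *Loxl1* (12.1% called, 6.91% as higher and 5.21% as lower). No gene of the 10 passed edgeR's test in 2 against 1 dpi (0.178% of all genes called, 0.157% as higher and 0.0214% as lower), 4 against 3 dpi (2.71%, 1.63% and 1.08%) or 6 against 4 dpi (0.513%, 0.235% and 0.278%), where 2, 1 and 3 had an unadjusted p under 0.05. DESeq2 called 1 gene in each of these, *P4ha3*, *P4ha3* and *Loxl1*. Over all genes it called 104, 879 and 807, where edgeR called 25, 380 and 72.

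The day of the highest mean log2 CPM lay at 3 to 5 dpi for 8 of the 10 genes. The exceptions were *Loxl1* at 6 dpi and *Plod1* at 2 dpi. For *Plod1* the means of 2 and 6 dpi were nearly equal (6.851 and 6.847), and with DESeq2 size factors 6 dpi was highest. In 6 of the 8 the highest day was 5 dpi, which is 1 library. Without that library, an alternative chosen after the values were seen, the count was 6 of 10, and the highest day became 1 dpi for *P4ha1* and 6 dpi for *Serpinh1*. With the days of each gene ordered by mean level, the libraries of neighbouring days overlapped in 40 of 50 pairs. In *P4ha3* they overlapped in 1 pair of 5, that of 6 and 3 dpi, and in *Loxl3*, *Plod1*, *Plod2* and *P4ha1* in all. The window covers 3 of the 6 days. The authors took it from the bulk peaks of marker genes that include *Lox*. The highest day of *Lox* in the window is therefore not an independent result. The shares over all genes tested were not taken, so these counts do not set the 10 genes apart from others.

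Within each library, differences of log2 CPM between paired genes cancel the library's scaling, and their change tells whether 2 genes changed unequally. For 9 pairs and 2 comparisons, two-sided exact permutation tests over libraries were adjusted over all 18 tests. The tests exchanged libraries without regard to day, although some pairs already differed between 1 and 2 dpi. Their p-values therefore do not measure the spread between days. Each library counted equally here, whereas the edgeR means weighted days equally. Between 3 to 5 dpi (8 libraries) and 1 and 2 dpi (6 libraries), 5 of 9 pairs passed. *P4ha3* minus *P4ha1* went from -5.03 ± 1.27 (SD, n = 6) to -1.70 ± 0.78 (SD, n = 8), a difference of 3.33 with no overlap between libraries (exact permutation p = 0.000666, the smallest this design can give, adjusted p = 0.00799). *P4ha2* minus *P4ha1* went from -1.15 ± 0.25 (SD, n = 6) to -0.49 ± 0.23 (SD, n = 8), a difference of 0.66 (exact permutation, adjusted p = 0.00799). *P4ha3* and *P4ha2* thus gained on *P4ha1* in the same libraries.

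Among the oxidases, *Loxl1* minus *Lox* went from 1.69 ± 0.65 (SD, n = 6) to 0.82 ± 0.20 (SD, n = 8), a difference of -0.87 (exact permutation, adjusted p = 0.0192). *Loxl2* minus *Lox* changed by 0.86 (exact permutation, adjusted p = 0.0629) and *Loxl3* minus *Lox* by 0.37 (0.262). The lysyl hydroxylase pair, *Plod2* minus *Plod1*, changed by 0.57 (exact permutation, adjusted p = 0.0706). *Col1a1*, a main substrate, rose more than *P4ha1* and *Plod2*. *P4ha1* minus *Col1a1* changed by -1.75 (exact permutation, adjusted p = 0.00799), *Plod2* minus *Col1a1* by -1.11 (0.0150) and *Serpinh1* minus *Col1a1* by -1.14 (0.0623). Against 6 dpi none of the 9 pairs passed (smallest exact permutation p = 0.0242, against 0.0121 as the smallest possible with 8 and 3 libraries). Without the 3 dpi libraries, 0 pairs passed in either comparison. That leaves 4 libraries against the 6 of 1 and 2 dpi, or against the 3 libraries of 6 dpi, where no pair could pass. *P4ha3* and *P4ha2* minus *P4ha1* then changed by 3.98 and 0.68 against 1 and 2 dpi, and *P4ha1* minus *Col1a1* by -1.84. Each had an adjusted p of 0.0571 (exact permutation). *Loxl1* minus *Lox* changed by -0.94 and *Plod2* minus *Col1a1* by -0.97 (0.129 in both). Fewer libraries raise the smallest p this test can give.

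**Figure D3:**
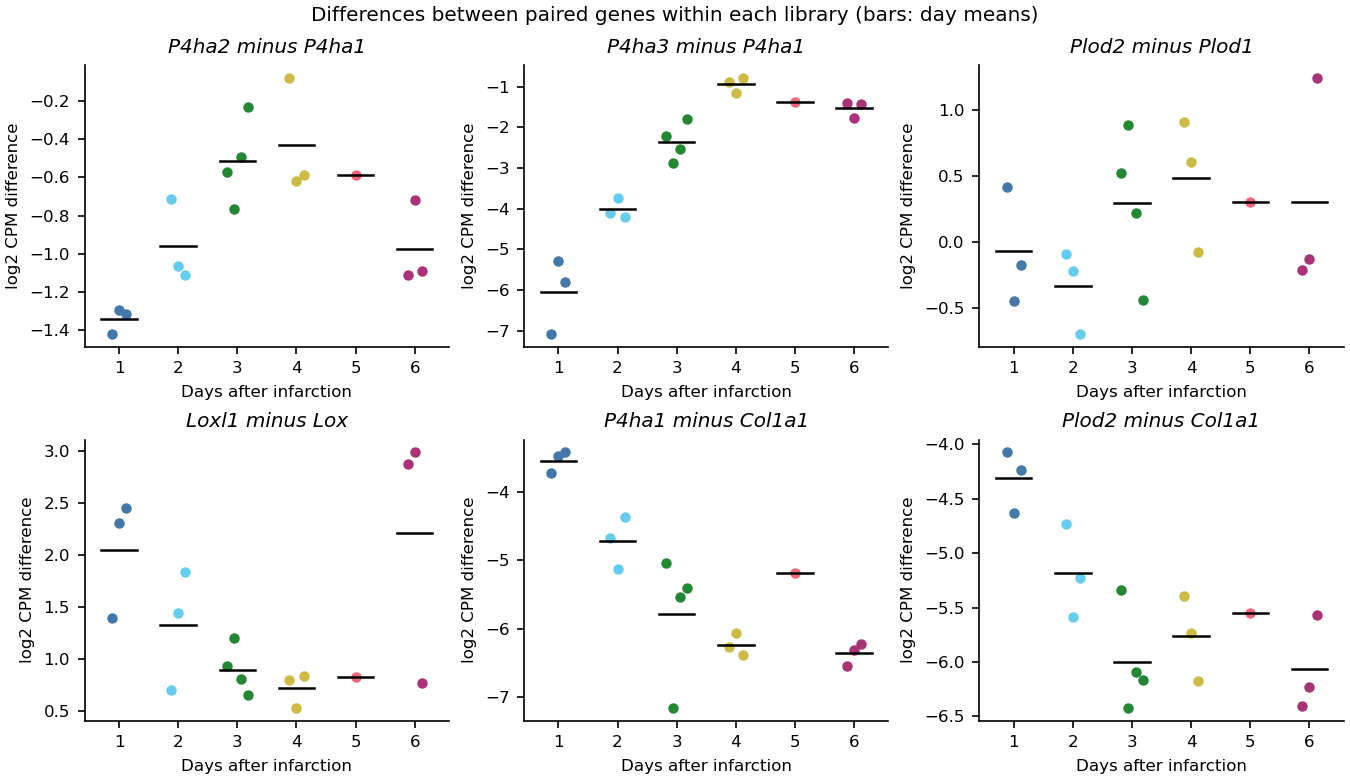
Difference of log2 CPM between paired genes (vertical axes) against days after infarction (horizontal axes), 1 point per library, bars at day means. From 1 and 2 dpi to 3 to 5 dpi, *P4ha2* and *P4ha3* move up relative to *P4ha1*, by 0.66 and 3.33. *P4ha1* and *Plod2* move down relative to *Col1a1*, by -1.75 and -1.11. In each of these pairs the 2 dpi libraries had already moved the same way from those of 1 dpi, without overlap.

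Genes that act beside these enzymes are given by lists, tested in the same fit. Of all genes tested, 7.48% were called in 3 to 5 against 1 and 2 dpi, 5.25% as higher and 2.24% as lower. Against 6 dpi 11.5% were called, 5.29% as higher and 6.25% as lower. In that first comparison, 1 gene called in the list of 13 or of 10 is near the share over all genes. Of 13 other collagen modifiers and chaperones, 1 rose from 1 and 2 dpi to 3 to 5 dpi and 0 fell, with a median log2 fold change of 0.46 against -0.000719 for all genes tested. It was *Fkbp14*, a prolyl isomerase of the endoplasmic reticulum (0.90 ± 0.24, SE, edgeR adjusted p = 0.0246). Against 6 dpi, 2 of the 13 were higher at 3 to 5 dpi and 0 lower, *Fkbp14* (0.94, edgeR adjusted p = 0.0495) and *P4hb* (0.81, edgeR adjusted p = 0.0402), named after its values were seen. *P4hb* encodes protein disulfide isomerase, the partner subunit of the prolyl 4-hydroxylases, and in 3 to 5 against 1 and 2 dpi it missed the threshold (0.65 ± 0.20, SE, edgeR adjusted p = 0.0500). Of 10 genes of procollagen export and propeptide cleavage tested, 1 rose, *Adamts2*, which removes the amino propeptide (0.78 ± 0.18, SE, edgeR adjusted p = 0.00868), and 0 fell, with a median of 0.19. The fibrillar collagens themselves rose in 8 of 11 cases and fell in 0, with a median of 1.41, which is the same with *Col24a1* at its lower bound. *Col24a1* had 0 counts in the 6 libraries of 1 and 2 dpi and 7 to 79 counts in each of the later 8, at least 116-fold higher against a floor of 3 counts over the early group (edgeR adjusted p = 3.22e-05). *Col1a1* rose 3.11-fold (log2 fold change 1.64 ± 0.27, SE, edgeR adjusted p = 0.000614). The sort itself used the *Col1α1* promoter.

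Of 7 elastic fibre genes, 1 rose from 1 and 2 dpi to 3 to 5 dpi and 0 fell, with a median of 0.30 (7.48% of all genes called, 5.25% as higher). It was *Fbn2*, encoding fibrillin-2 (1.16 ± 0.24, SE, edgeR adjusted p = 0.00412). Relative to 6 dpi, 3 of these 7 were lower at 3 to 5 dpi and 0 higher, with a median of -0.80 (6.25% of all genes called lower). These genes, named after their values were seen, were *Eln*, encoding elastin (-2.86 ± 0.29, SE, edgeR adjusted p = 7.35e-05), *Mfap4* (-2.11) and *Mfap5* (-0.96). From 1 to 6 dpi 5 of 7 rose, the same 3 with *Fbln5* and *Fbn2* (6.91% of all genes called higher). *Loxl1* was lower at 3 to 5 dpi than at 6 dpi, with a log2 fold change of -0.74. Of 15 genes of the hypoxia response, which is known to induce prolyl and lysyl hydroxylases, 0 rose from 1 and 2 dpi to 3 to 5 dpi and 1 fell, *Adm*, encoding adrenomedullin (-0.96 ± 0.28, SE, edgeR adjusted p = 0.0418), with a median of -0.28. That 1 of 15 is near the 7.48% called over all genes. From 1 to 6 dpi, 4 of the 15 fell and 0 rose, where 5.21% of all genes were called lower. Named after their values were seen, they were *Slc2a1* (-2.49), *Pgk1* (-1.53), *Ldha* (-1.34) and *Vegfa* (-1.17). Of these, *Slc2a1* and *Pgk1* were higher at 3 to 5 dpi than at 6 dpi (1.41 and 1.42), where 0 of the 15 were lower.

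**Figure D4:**
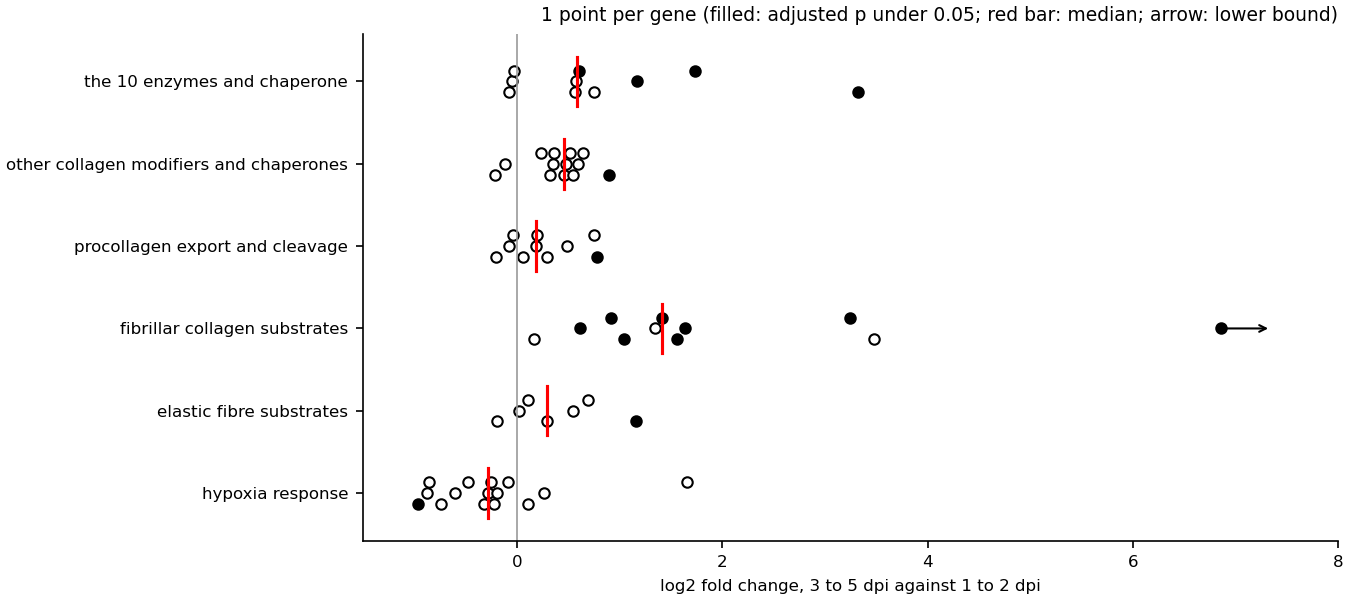
Log2 fold change of 3 to 5 dpi against 1 to 2 dpi (horizontal axis) for the 10 genes and 5 lists of related genes (rows), 1 point per gene, filled where the edgeR adjusted p was under 0.05, red bars at list medians. *Col24a1* is drawn at its lower bound with an arrow. The medians are 0.59 for the 10 genes, 1.41 for the fibrillar collagens and -0.28 for the hypoxia response.

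The genes most like each of the 10 were sought by Pearson's r of log2 CPM over the 17 libraries, which share days, depth and preparation, among tested genes with a mean of at least 100 counts. For *P4ha3* they were *Kif26b* (r = 0.95), *Fndc1* (0.93) and *Cthrc1* (0.93), the marker of reparative CFs. For *Loxl2* they were *Hmgb2* (0.92), *Ckap2* (0.92) and *Cenpa* (0.91), and for *P4ha2* *Cdc45* (0.88), *Incenp* (0.88) and *Ydjc* (0.86). *Ckap2*, *Cenpa*, *Cdc45* and *Incenp* are known from DNA replication or mitosis. For *Loxl3* they were *Thy1* (0.91), *Col1a2* (0.90) and *Dok1* (0.89), which lies 701 bases from *Loxl3*. For *Loxl1* they were *Cst3* (0.96), *Vangl1* (0.92) and *Paxx* (0.92). For *P4ha1* they were *Dnajb11* (0.77), *Foxk2* (0.76) and *Creld2* (0.75), of which *Dnajb11* and *Creld2* encode proteins of the endoplasmic reticulum.

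For the rest the highest r was 0.87 for *Lox* with *Armc10* (then *Sptlc2* and *Decr2*), 0.83 for *Plod2* with *Unc5b* (then *Bace1* and *Eif4e2*), 0.82 for *Serpinh1* with *Nr2f6* (then *Endod1* and *Slc35a2*) and 0.81 for *Plod1* with *Fam122a* (then *Wtip* and *Pea15a*). Between the 10 genes, r over the 17 libraries ran from -0.35 to 0.87 in 45 pairs, with a median of 0.36. The 4 pairs at 0.7 or above included *Loxl3* with *P4ha3* (0.87) and *Loxl2* with *P4ha2* (0.83). With *Col1a1*, r was 0.84 for *Loxl3* and -0.48 for *P4ha1*. These are descriptions of how the libraries varied, within and between days.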

How the data were processed

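CFs sorted from infarcted hearts gave 17 bulk MARS-seq libraries. Demultiplexing by the authors used bcl2fastq (1.2.4), alignment to mm10 used STAR, and featureCounts assigned reads to an Ensembl annotation. The deposited table holds the resulting counts, not normalized, 8021815 to 22029938 per library. No use of molecular identifiers is named, so counts are not independent molecules, and counting error is a lower limit of the error. Up to 8 samples were pooled for amplification, and the pools are not given in the sources used here. The 5 dpi library has replicate number 3 in its title and another in its description, and the title was used.

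Symbols and positions are from GENCODE on GRCm38, and 30934 of 31053 genes had a symbol. Counts were tested in R (4.3.3) with the quasi-likelihood F-test of edgeR (4.0.16), scaled by TMM, on the 14030 genes reaching 10 counts in 3 or more libraries, with day as a factor of 6 levels over all 17 libraries and Benjamini-Hochberg adjustment at 0.05. Days were weighted equally in the mean of 3 to 5 dpi, in which 5 dpi is 1 library, and it was not tested alone. Log2 CPM used a prior count of 2. The replicate pairs of each day, 18 in all, differed by more than counting error (chi-square per degree of freedom 23.03 or more). Paired-gene differences were tested by exact permutation with scipy (1.17.1) in Python (3.11.15) and pandas (2.3.3), and figures drawn with matplotlib (3.10.9). The edgeR test was tested on simulated data. Alternatives were other normalizations, filters and spread estimates, DESeq2 (1.42.0), a replicate block, fewer libraries, and leaving out 1 of 16 libraries at a time. The 10 genes and all gene lists were chosen with earlier results of these data known. Genes named from a list are the largest rise and fall called at 3 to 5 against 1 and 2 dpi, and *Col1a1*. The likeness rule names 3 genes for each of the 10.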

Additional observations from a re-analysis of the deposited data

How the results depend on the processing

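The counts of the 10 genes called in 3 to 5 against 1 and 2 dpi (4) and in 6 against 1 dpi (3) stayed within 1.5 times under every alternative run, between 3 and 5 and between 2 and 3. The genes behind these counts changed more. *P4ha2* was lost from the first in 19 of 27 alternatives and *Loxl1* from the second in 14 of 25. With every gene of at least 1 count and with only the days compared, *Lox* took the place of *P4ha2* in the first. The count across days (3) was 5 with DESeq2 (*Loxl1* and *P4ha2* added) and 3 to 6 with 1 library left out. DESeq2 called 3757 of all genes there, against 2099 in the main fit. Against 6 dpi (3) it was 1 with every gene of at least 1 count, with the replicate block, with only the days compared and without the 3 dpi libraries (*Loxl1* and *P4ha2* lost in each), and 0 to 3 with 1 library left out (0 without 6 dpi replicate 1 or 2). Over all genes, calls against 6 dpi went from 1619 to 2132, 1112, 926 and 779 in the alternatives just named, in that order. Without 6 dpi replicates 1 and 2 they were 488 and 299. In 3 against 2 dpi (2) it was 1 with at least 10 counts in every library, where *P4ha3* was not tested, and 1 with the replicate block, where *P4ha3* was lost, and 0 to 2 with 1 library left out. Over all genes, calls in 3 against 2 dpi went from 412 to 174 with the replicate block. Without 2 dpi replicates 1, 2 and 3 they were 243, 46 and 133. In 2 against 1 dpi (0) it was 1 with every gene of at least 1 count and 1 with DESeq2. In 4 against 3 dpi (0) it was 1 under both and 0 to 1 with 1 library left out. In 6 against 4 dpi (0) it was 1 with DESeq2 and 0 to 1 with 1 library left out (*Lox*, without 6 dpi replicate 3). Over all genes, calls in 2 against 1, 4 against 3 and 6 against 4 dpi went from 25, 380 and 72 to 104, 879 and 807 with DESeq2. In 6 against 4 dpi they were 1402 without 6 dpi replicate 3. Pairs of genes passing (5) fell to 0 without the 3 dpi libraries, where 4 libraries remain against 6, and were 5 to 6 with 1 library left out. That fall to 0 cannot be told apart from the larger smallest p that fewer libraries allow. Values near 0 changed sign. *Plod1* (3 to 5 against 1 and 2 dpi) was 0.0354 without the 3 dpi libraries and -0.138 to 0.0501 with 1 library left out, *P4ha1* was 0.00986 where Y-linked counts outnumbered *Xist* and -0.142 to 0.0523, *P4ha3* minus *P4ha1* against 6 dpi was 0.48 without the 3 dpi libraries, and *Plod2* minus *Plod1* against 6 dpi was -0.19 to 0.53. Except where stated, the cause was not tested. Whether replicate numbers pair the samples is not given. Deviations correlated at 0.011 on average over 30 same-numbered pairs (-0.108 to 0.200) and at -0.005 over 72 others. A low average does not show that no samples were paired. With the replicate block, *P4ha2* was not called in 3 to 5 against 1 and 2 dpi (0.54, edgeR adjusted p = 0.106) nor against 6 dpi (0.66, 0.0965), and *Loxl1* was not called against 6 dpi (-0.72, 0.0712) or in 6 against 1 dpi (0.77, 0.0744). The lowest *P4ha3* levels rest on 6 counts, so depth limits its fold at 1 dpi.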
